A study of Mus musculus with 6 samples.

Results

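The genes described are 6 that encode enzymes of ether lipid synthesis and of the handling of the branched-chain alcohol phytol by alpha-oxidation: Gnpat, Agps, Far1, Phyh, Hacl1 and Pecr. Each was taken as the probe set that maps to its symbol alone and has the highest mean over all 6 arrays, and all 6 were found among 18193 measured genes. The samples were livers of male mice aged 10 weeks, 3 wild-type (WT) and 3 labelled L Pex5 -/- (KO), measured with 1 Affymetrix expression array per liver. The labels give both groups the same mixed background, Alb-Cre Tac:[Sw]fBR, in which Alb-Cre is a recombinase driven by the albumin promoter, active in hepatocytes. Whole liver also holds Kupffer, endothelial, stellate and bile duct cells, and fewer cells of a type cannot be told apart from less RNA per cell. The series title places the comparison in a study of carbohydrate metabolism in hepatocytes without functional peroxisomes.

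Ether lipids carry a fatty alcohol on glycerol in place of a fatty acid, and plasmalogens are the best known of them. Their synthesis begins in peroxisomes: FAR1 makes the fatty alcohol at the peroxisomal surface, GNPAT acylates dihydroxyacetone phosphate, and AGPS exchanges that acyl chain for the alcohol. Alpha-oxidation removes 1 carbon from phytanic acid, whose methyl branch blocks beta-oxidation, with PHYH hydroxylating phytanoyl-CoA and HACL1 cleaving the product. PECR, a trans-2-enoyl-CoA reductase, takes part in turning phytol into phytanoyl-CoA. GNPAT, HACL1 and PECR enter peroxisomes through the import receptor PEX5, AGPS and PHYH through PEX7 acting with PEX5, and FAR1 sits in the membrane.

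Agps was higher and Pecr was lower in KO livers, and the other 4 genes did not pass the test (limma, adjusted p under 0.05), which 24.0% of all genes passed. For these 2 genes the bases just before the RefSeq transcript start (build GRCm38.p6) are shown, because they moved in opposite directions. The windows are chr2:75831927-75832176, plus strand, for Agps and chr1:72284322-72284571, minus strand, for Pecr, both read 5′ to 3′ along the gene, with the matches described next in capitals.
Agps: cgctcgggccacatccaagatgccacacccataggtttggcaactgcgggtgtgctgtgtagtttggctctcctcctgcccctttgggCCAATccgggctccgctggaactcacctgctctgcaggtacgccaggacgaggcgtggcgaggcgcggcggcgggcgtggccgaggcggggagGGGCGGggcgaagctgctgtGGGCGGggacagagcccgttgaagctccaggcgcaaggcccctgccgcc
Pecr: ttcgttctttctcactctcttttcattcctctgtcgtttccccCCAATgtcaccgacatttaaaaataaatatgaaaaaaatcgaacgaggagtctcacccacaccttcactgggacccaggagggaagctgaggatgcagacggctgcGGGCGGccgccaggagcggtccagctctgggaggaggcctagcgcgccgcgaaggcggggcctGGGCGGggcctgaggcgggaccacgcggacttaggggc
Both windows hold GGGCGG at 2 places and CCAAT at 1 place, all on the gene's own strand. GGGCGG, the core of the GC box, was found on either strand in 32.7% of 32851 windows of this length, and CCAAT in 33.8%. The PPAR response element (a direct repeat of AGGTCA with 1 base between), AGGTCA alone, TGACNNNGC (the core of the antioxidant response element) and TATAAA had 0 matches on either strand in both windows, against 0.0335%, 14.0%, 10.2% and 12.4% of all windows. For the PPAR element only the exact string of 13 bases was searched, which nearly all windows lack. Its absence here therefore does not show that a gene has no such element, and bases outside the windows were not searched. The same 4 motifs had 0 matches in the windows of Gnpat, Far1, Phyh and Hacl1. A match is a description of these letters, and the windows of the gene that rose and of the gene that fell had the same counts of each motif searched. Whether these bases bear on either direction was not tested.

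Values are log2 levels after RMA, differences are KO minus WT on the log2 scale, with errors given as SD (3 livers of a group) or as SE (limma's fit). Adjusted p-values are limma's with Benjamini-Hochberg adjustment over all 18193 genes, with a threshold of 0.05. Of all genes, 24.0% were called changed, 14.2% higher and 9.75% lower in KO, so a call on 2 of 6 genes is read against that share. Over all genes, the lowest correlation between 2 arrays of one group was 0.989, and the highest between a WT and a KO array 0.976. The bacterial and phage control probe sets, 45 in number, had mean levels of 9.67 to 9.76 on the WT arrays and 9.23 to 9.31 on the KO arrays (exact two-sided permutation test, p = 0.1, the smallest that 3 against 3 arrays can give). Centring the arrays on them takes the controls' KO minus WT difference of -0.44 off the difference of every gene alike. Calls gained or lost with control centring thus come from the same shift and are not separate results for each gene. It moved the median difference over all genes from -0.055 to 0.386, and then 11086 genes were called higher and 475 lower, against 2589 and 1774 as deposited. A direction here is thus one relative to most other genes on the array. The 4 hepatocyte markers measured were high in every liver, with a mean of 14.13 to 14.17 in WT and 14.19 to 14.23 in KO. Of 31 markers of Kupffer, endothelial, stellate, bile duct, lymphoid and erythroid cells, 1 was higher and 5 were lower in KO. The mean over the 5 bile duct markers was 4.96 to 5.15 in WT and 4.75 to 4.91 in KO. Those means are close to the background of 4.90 (defined below), with 1 of the 5 markers under it on every array and 1 called, as lower. The group ranges overlapped for the other 5 cell types. The part of these cells in the results was not tested.

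Pex5 itself stood at 9.14, 8.88 and 9.11 in WT and at 9.35, 9.19 and 9.13 in KO. The groups overlapped, the difference was 0.18 ± 0.11 (SE, adjusted p = 0.262), and its other probe set differed by 0.15 ± 0.13. Control centring gave 0.62 for Pex5, which passed (adjusted p = 0.00138). Which exons were deleted is not given in the sources used here, and the labels are therefore not checked by either probe set. Pex7, the receptor that carries AGPS and PHYH, averaged 10.57 ± 0.09 over WT livers and 10.51 ± 0.07 over KO livers (SD, n = 3; difference -0.06, adjusted p = 0.677), and control centring turned that to 0.38 (adjusted p = 0.00698).

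**Figure D1:**
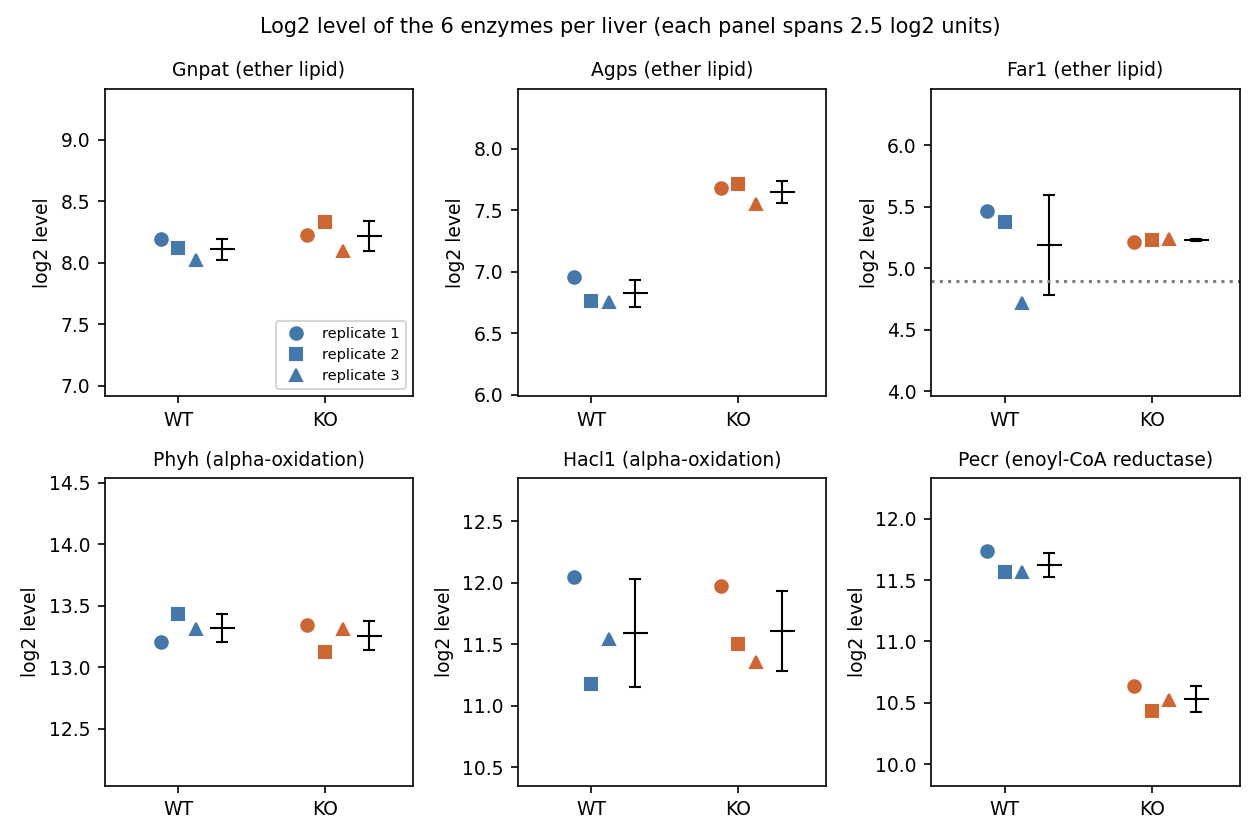
Log2 level (vertical axis) of Gnpat, Agps, Far1, Phyh, Hacl1 and Pecr in each liver, with a point per array shaped by replicate number and a bar for the group mean with its SD; each panel spans the same range and the dotted line marks the background of 4.90. The 3 KO livers sit above all WT livers for Agps and below all WT livers for Pecr, and the groups overlap in the other 4 panels.

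Among the ether lipid enzymes, Agps, which forms the ether bond, was the gene that rose. Its log2 level was 6.95, 6.76 and 6.76 in the 3 WT livers and 7.69, 7.71 and 7.55 in the 3 KO livers. Every KO liver lay above every WT liver, and the gap between the groups was wider than the range within either. The means of 6.83 ± 0.11 and 7.65 ± 0.09 (SD, n = 3) differ 1.77-fold (0.82 ± 0.10, SE, adjusted p = 0.00103). Its difference lay at the 95.5th percentile of all genes. Leaving out any 1 array gave differences from 0.79 to 0.89 with adjusted p-values of at most 0.00798.

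The other probe sets of Agps did not show this rise. Over all probe sets 16.3% passed, and of the 13 probe sets of the 6 genes 2 did. The call on Agps rests on the brightest of 3 probe sets. The second brightest stood at 4.56, 5.02 and 5.76 in WT and at 4.90, 4.86 and 4.71 in KO, with the KO livers inside the WT range (-0.29 ± 0.26, adjusted p = 0.484 over all probe sets). The dimmest lay below the background of 4.90 on every array and differed by -0.25 ± 0.11 (adjusted p = 0.151). Background was set as the 95th percentile of the mean levels of 39 olfactory receptor genes. That most of them are little expressed in liver was assumed and not tested. With the 3 probe sets averaged, the difference was 0.09 (adjusted p = 0.579), so the call on Agps holds for its brightest probe set.

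Gnpat, which catalyses the first step, had 1 probe set and small differences between livers. It stood at 8.19, 8.12 and 8.02 in WT and at 8.23, 8.33 and 8.09 in KO. The groups overlapped, with the lowest KO liver inside the WT range. The difference was 0.11 ± 0.10 (SE, adjusted p = 0.457), with a 95% interval of -0.12 to 0.34. Quantile normalization gave -0.03, and control centring gave 0.55, which passed (adjusted p = 0.00235).

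Far1, which supplies the fatty alcohol and is held to limit the rate of plasmalogen synthesis, was measured close to background. Its brightest probe set stood at 5.47, 5.37 and 4.72 in WT and at 5.22, 5.23 and 5.24 in KO. The KO livers fell between the WT livers, and WT replicate 3 was below background. The difference was 0.04 ± 0.19 (SE, adjusted p = 0.888), with a 95% interval of -0.39 to 0.47, and it was -0.19 without WT replicate 3 (adjusted p = 0.162). The other 4 probe sets of Far1 had mean levels from 3.07 to 4.33, all under background, and differences from 0.11 to 0.25, of which 0 passed limma's test and 0 had an unadjusted p under 0.05. A change of Far1 within that interval was not detectable with these arrays.

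Neither alpha-oxidation enzyme passed the test. Phyh, the phytanoyl-CoA hydroxylase, stood at 13.21, 13.44 and 13.31 in WT and at 13.34, 13.12 and 13.31 in KO. The livers of both groups covered nearly the same range. The difference was -0.06 ± 0.10 (SE, adjusted p = 0.697), with a 95% interval of -0.30 to 0.18. It was 0.01 without KO replicate 2 and 0.38 with the arrays centred on the control transcripts, where it passed as higher (adjusted p = 0.0241).

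Hacl1, the lyase that cleaves 2-hydroxyphytanoyl-CoA, varied more between livers of one group than Phyh did. It stood at 12.05, 11.18 and 11.54 in WT and at 11.98, 11.50 and 11.35 in KO. The highest liver of each group was about level with that of the other, and the groups overlapped throughout. The SD was 0.44 in WT and 0.32 in KO, against 0.11 and 0.12 for Phyh. The difference was 0.02 ± 0.24 (SE, adjusted p = 0.956), with a wide 95% interval of -0.53 to 0.57. Its sign turned without WT replicate 2 (-0.18), WT replicate 3 (-0.0035) or KO replicate 1 (-0.16).

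Pecr, the enoyl-CoA reductase, was the gene that fell. Its log2 level was 11.74, 11.56 and 11.57 in WT and 10.64, 10.43 and 10.53 in KO. Every KO liver lay below every WT liver. The means of 11.62 ± 0.10 and 10.53 ± 0.11 (SD, n = 3) differ 2.13-fold (-1.09 ± 0.10, SE, adjusted p = 0.00028). The difference lay at the 1.66th percentile of all genes. It ran from -1.14 to -1.03 when 1 array was left out and was -0.65 with the arrays centred on the control transcripts, passing each time. Its second, dimmer probe set was also lower in each KO liver than in any WT liver, from 5.33 ± 0.22 to 4.90 ± 0.14 (-0.42 ± 0.13), and did not pass over all probe sets (adjusted p = 0.0673).

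**Figure D2:**
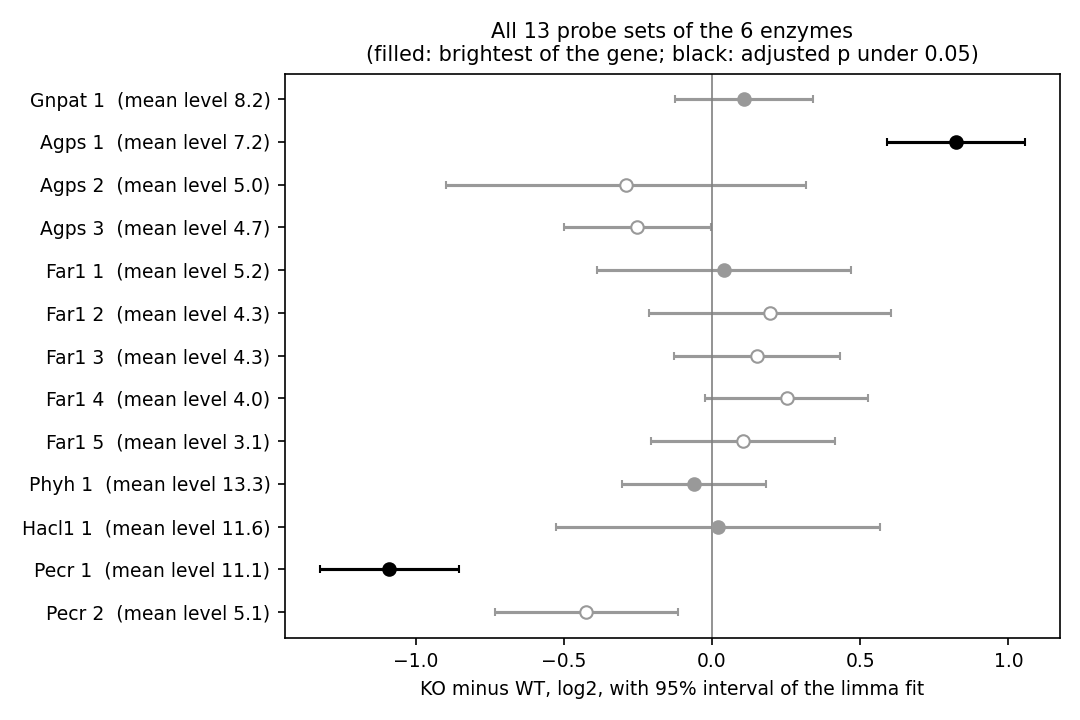
KO minus WT difference (horizontal axis, log2) with its 95% interval for each of the 13 probe sets of the 6 enzymes, ordered within a gene by mean level, filled for the brightest and black where the adjusted p passed. 2 of 13 probe sets passed, the brightest of Agps at 0.82 and the brightest of Pecr at -1.09, and the 2 dimmer probe sets of Agps lie on the other side of 0.

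The 6 genes had a median difference of 0.031, against -0.055 over all genes. The groups did not overlap in 2 of the 6, against 44.8% of all genes, of which 22.1% had KO above WT and 22.6% KO below WT. The genes on the way to the ether bond differed by 0.04 (Far1), 0.11 (Gnpat) and 0.82 (Agps), and those on the way from phytol by -1.09 (Pecr), -0.06 (Phyh) and 0.02 (Hacl1). Of the 3 imported through PEX5 alone (Gnpat, Hacl1, Pecr) 1 was called, as lower, and of the 2 imported with PEX7 (Agps, Phyh) 1 was called, as higher. Calls were made on 24.0% of all genes, 14.2% as higher and 9.75% as lower. The call on Agps holds for its brightest probe set. With so few genes per route, no difference between the routes can be read from these counts.

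The genes whose pattern over the 6 arrays came closest were found by the root mean square difference of levels centred on each gene's mean, among 12042 genes above background. For Agps they were Hadha, a subunit of the mitochondrial trifunctional protein of beta-oxidation (root mean square difference 0.038), and Mospd1 (0.042). Hadha differed by 0.84 ± 0.09 between KO and WT, and Mospd1 by 0.83 ± 0.10. For Pecr they were Dnase2b, a deoxyribonuclease (0.022, differing by -1.07 ± 0.10), and Tmem14a, a small membrane protein (0.058, differing by -1.04 ± 0.10). These 4 genes were picked for likeness over 6 arrays, so their differences are a description.

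Genes listed for the later steps of ether lipid synthesis went both ways. The list also includes the supply of ethanolamine and Far2, a fatty acyl-CoA reductase like Far1. Far2 averaged 3.42 in WT and 3.35 in KO, below background, and was not called. Of the 8 measured genes of the list, 1 was higher and 3 were lower, with a median of -0.12. Of all genes, 14.2% were called higher and 9.75% lower. Tmem189, the desaturase that makes the vinyl ether bond of plasmalogens, was at 6.76, 6.67 and 6.73 in WT and at 6.24, 6.00 and 6.20 in KO. All KO livers were below all WT livers, a fall of 1.49-fold (-0.57 ± 0.10, adjusted p = 0.00505), and 2 of its 3 probe sets passed as lower. Chpt1, a cholinephosphotransferase, fell 2.05-fold (-1.04 ± 0.11, adjusted p = 0.000692), with each of its 4 probe sets called lower. Pcyt2, which makes CDP-ethanolamine, fell by 0.59 ± 0.17 (adjusted p = 0.0402), and Selenoi, the ethanolamine phosphotransferase that uses it, rose by 0.55 ± 0.13 (adjusted p = 0.0202). The call on Pcyt2 was lost without WT replicate 1 or 2 or any 1 KO replicate (adjusted p from 0.0585 to 0.142) and with each array centred on its median (0.0543). The call on Selenoi was lost without WT replicate 2 or any 1 KO replicate (0.051 to 0.0808), and its 4 probe sets averaged a difference of 0.15 (adjusted p = 0.534). With the arrays centred on the control transcripts, 3 of the 8 were higher and 1 lower. Of all 18193 genes, 11086 were then higher and 475 lower. The median of the list was then 0.325, and Tmem189 (-0.13, adjusted p = 0.291) and Pcyt2 (-0.15, adjusted p = 0.473) were no longer called. Dhrs7b, the reductase that acts next after AGPS, differed by 0.15 ± 0.10 (adjusted p = 0.305). It passed as higher with control centring (0.59, adjusted p = 0.00134), and was -0.08 with its probe set of largest variance (adjusted p = 0.668).

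In the list of ether lipid breakdown and platelet-activating factor, 3 of 7 measured genes were higher and 0 lower by limma, with a median of 0.30. The count of lower genes was also 0 at an unadjusted p under 0.05. Of all genes, 14.2% were called higher and 9.75% lower. With control centring, which shifts every gene alike, all 7 were higher, where 11086 of 18193 genes were. They included Tmem86b, which averaged 3.92 in WT and 3.94 in KO, below the background of 4.90. Aldh3a2, the fatty aldehyde dehydrogenase, serves both ether lipid breakdown and the phytol route. It stood at 10.11, 10.21 and 10.32 in WT and at 11.54, 11.48 and 11.71 in KO, a rise of 2.57-fold (1.36 ± 0.10, adjusted p = 0.000106). The KO livers were all above the WT livers. Tmem86a, a lysoplasmalogenase, rose 2.14-fold (1.10 ± 0.13, adjusted p = 0.000978). Pla2g7, the hydrolase of platelet-activating factor, rose 3.84-fold from 6.81 ± 0.47 to 8.76 ± 0.21 (adjusted p = 0.00089). Macrophages are a known source of Pla2g7. Of 6 Kupffer cell and macrophage markers 0 were called by limma (0 also at an unadjusted p under 0.05). Their mean level ran from 7.55 to 8.73 in WT and from 7.95 to 8.38 in KO. The part of macrophages in the rise of Pla2g7 was not tested. Agmo, which cleaves alkylglycerols, differed by 0.30 ± 0.12 (adjusted p = 0.107) and passed as higher without WT replicate 3 (0.41, adjusted p = 0.0294), with array weights (0.38, adjusted p = 0.0295) and with control centring (0.74, adjusted p = 0.000859).

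Of 9 measured genes that handle phytol products and branched-chain acids beside the 6 enzymes, 4 were higher and 0 lower by limma. Of all genes, 14.2% were called higher and 9.75% lower. The list had a median of 0.16, and 2 of its genes were lower at an unadjusted p under 0.05. With trend and robust eBayes these 2 were called lower: Slc27a2, a very-long-chain acyl-CoA synthetase (-0.27, adjusted p = 0.0451), and Scp2, a peroxisomal thiolase and sterol carrier protein (-0.21, adjusted p = 0.0383). Neither was called in limma's main fit (adjusted p = 0.107 for Slc27a2 and 0.129 for Scp2). Control centring turned Slc27a2 to 0.17 and Scp2 to 0.23. Besides Aldh3a2, the genes called higher were Crot, Abcd3 and Acox2. Crot, the peroxisomal carnitine octanoyltransferase, differed by 1.13 ± 0.18 (adjusted p = 0.00385). Abcd3, a peroxisomal membrane transporter, differed by 0.47 ± 0.10 (adjusted p = 0.0131), and Acox2, an acyl-CoA oxidase, by 0.41 ± 0.11 (adjusted p = 0.0257). Acox3, another acyl-CoA oxidase of the list, differed by -0.08 ± 0.15 (adjusted p = 0.725), with overlapping groups. Control centring turned Acox3 to 0.36 (adjusted p = 0.082). Averaging the probe sets gave 0.57 for Crot (adjusted p = 0.0284), of whose 2 probe sets 1 was called, and 0.76 for Abcd3 (adjusted p = 0.0151). The call on Abcd3 was lost without KO replicate 1 (adjusted p = 0.0614). That on Acox2 was lost without WT replicate 2 or 3 or KO replicate 1 or 2 (adjusted p from 0.0517 to 0.0981). Without KO replicate 1 the list held 2 higher genes. Aldh3a2, on the same route from phytol, rose, while Pecr fell.

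For straight-chain beta-oxidation in peroxisomes, 6 of 7 measured genes were higher and 0 lower by limma, against 14.2% and 9.75% of all genes. The count of lower genes was also 0 at an unadjusted p under 0.05, and the median was 0.657. Among the enzymes described here, 1 of 6 was higher and 1 of 6 lower. The difference between the lists was not tested. Ehhadh, the bifunctional enzyme, rose 5.91-fold (2.56 ± 0.13, adjusted p = 1.70e-05), and the thiolases Acaa1b and Acaa1a rose 1.59-fold and 1.58-fold. Abcd2, a transporter of very-long-chain acyl-CoA, was below background in all WT livers (4.35, 3.39 and 4.68) and at 6.19, 6.48 and 6.40 in KO, at least 2.74-fold higher with the WT livers set to background (adjusted p = 0.0016). Averaging the probe sets gave differences of 0.99 for Abcd2 (adjusted p = 0.00657) and 0.42 for Acaa1a (adjusted p = 0.0448). Called as higher were 2 of the 4 probe sets of Abcd2 and 1 of the 2 of Acaa1a.

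The list of import and processing genes, which serve the 6 enzymes' entry into peroxisomes, held 2 higher and 0 lower genes of 9 by limma, with a median of 0.18. Over all genes 24.0% were called, 14.2% as higher, so that 2 of 9 is near the background. With control centring all 9 were higher, where 11086 of 18193 genes were. With the probe set of largest variance for each gene, Pex16, which helps to insert membrane proteins, was lower (-0.50, adjusted p = 0.0302). Pex19, a chaperone of peroxisomal membrane proteins, rose by 0.44 ± 0.09 (adjusted p = 0.0124), and Pex13, a docking protein, by 0.43 ± 0.12 (adjusted p = 0.0401). Without KO replicate 1 or KO replicate 2 the list held 0 higher genes. The call on Pex19 was then lost (adjusted p = 0.0598 and 0.0525). That on Pex13 was also lost without WT replicate 2 or 3 or KO replicate 3 (0.0726 to 0.0797). Averaging its 2 probe sets gave 0.25 and also lost the call (adjusted p = 0.142).

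**Figure D3:**
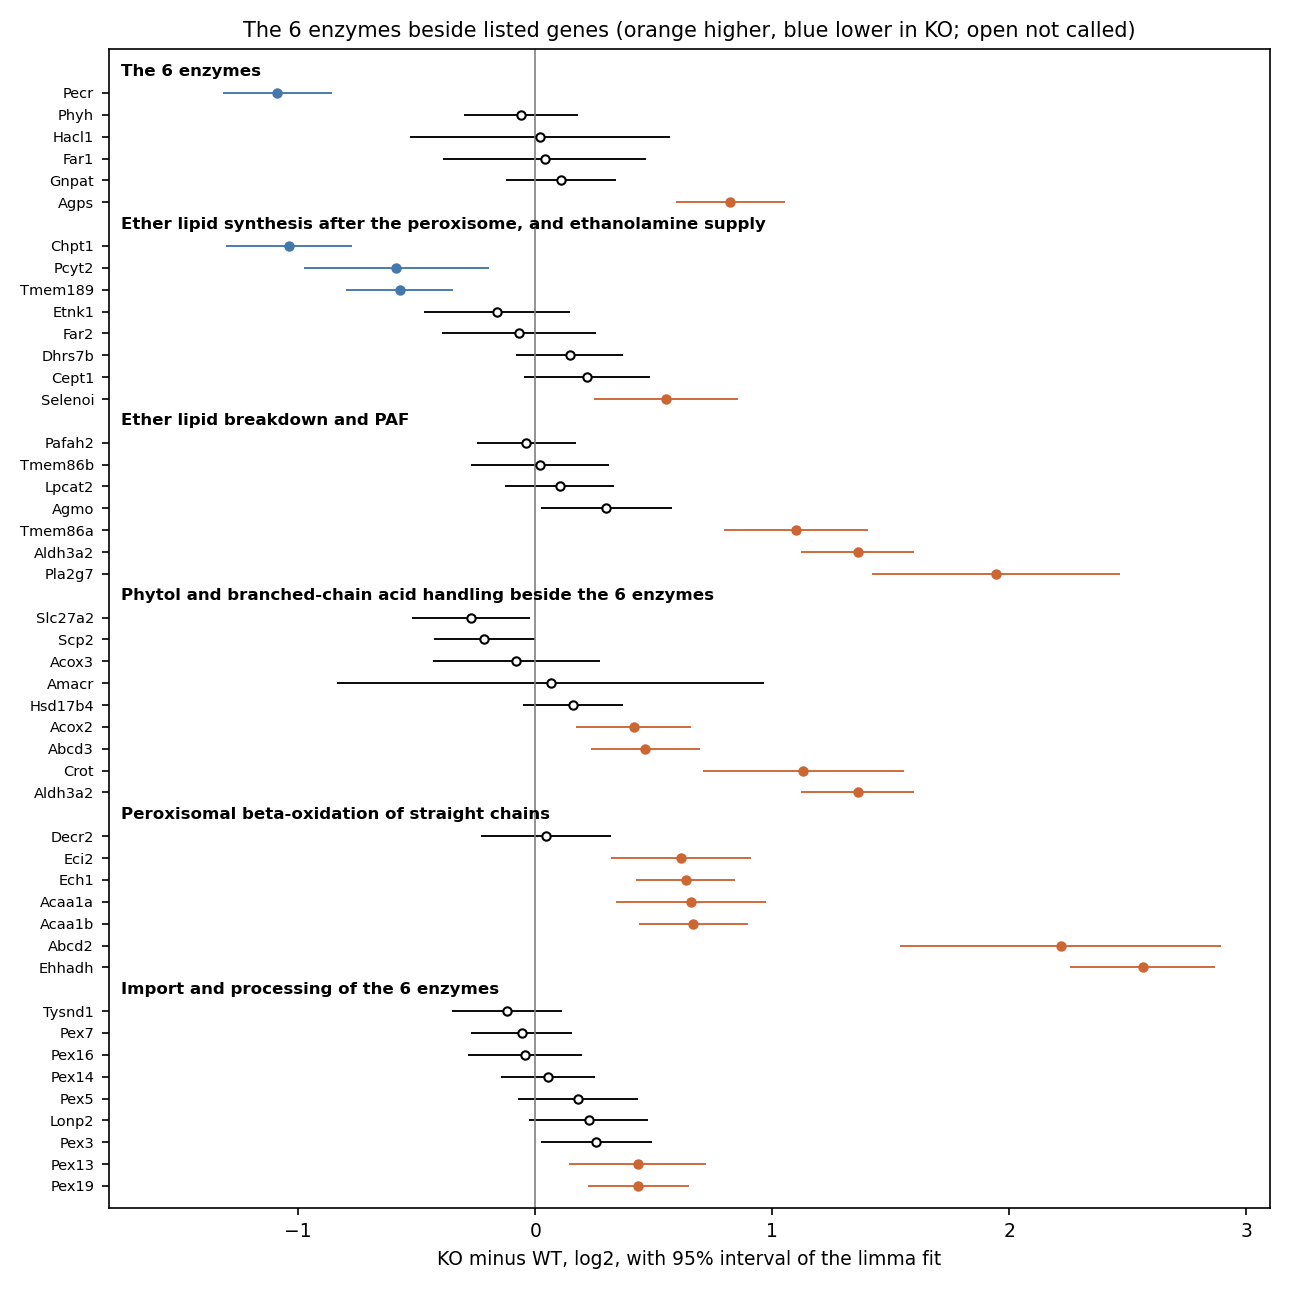
KO minus WT difference (horizontal axis, log2) with its 95% interval for the 6 enzymes and for the genes of 5 lists, orange where called higher, blue where called lower and open where not called. The 6 enzymes hold 1 higher and 1 lower gene, and the straight-chain beta-oxidation list holds 6 higher genes of 7. Of all genes, 14.2% were called higher and 9.75% lower.

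**Figure D4:**
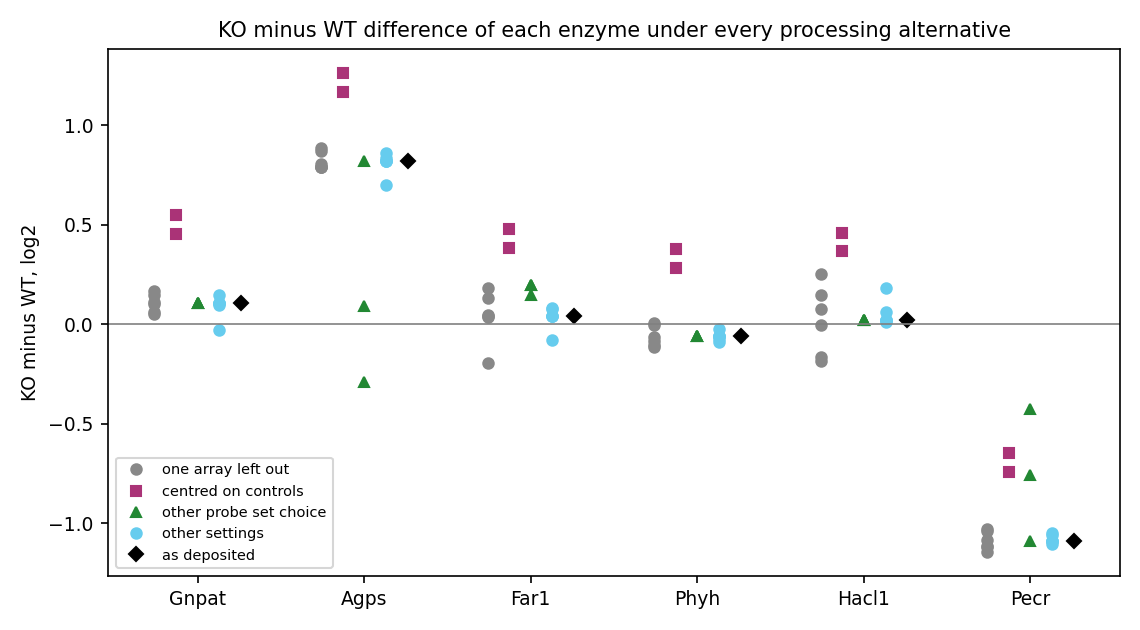
KO minus WT difference (vertical axis, log2) of each of the 6 enzymes as deposited and under 17 processing alternatives, a point per alternative. Pecr is below 0 throughout, Agps is above 0 except with its second brightest probe set (-0.29), and the 2 settings centred on controls lie above the deposited value for all 6.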

How the data were processed

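Total RNA from 3 WT and 3 KO livers was extracted with Trizol and labelled with biotin by the Affymetrix protocol, per the labels' protocols. The authors made the deposited log2 levels with RMA (version not given), per the submitters' processing notes. The log2 scale was inferred from a range of 2.15 to 14.9. RMA forces arrays towards one distribution, so a shift of most transcripts is removed, and dim probe sets have compressed differences. No detection calls were used.

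Groups and replicate numbers come from the titles; nothing in the labels records a date or batch. Of 45101 probe sets, 64 are controls, and the platform annotation of GEO gives 34945 probe sets 1 symbol, 932 several, and leaves 9160 unnamed here. A gene is its probe set of highest mean. limma 3.58.1 (R 4.3.3) was fitted to all 18193 genes without a filter, two-sided, with group as the only factor. Probe sets (45037) were fitted likewise. All RefSeq windows used are the 250 bases before a transcript start. Some listed genes were not analysed here. Named genes are the 6 enzymes, Pex5, Pex7 and up to 4 called genes of each list with the largest difference. The 2 genes nearest in pattern to each called enzyme are also named. Dhrs7b, Far2, Agmo, Tmem86b, Slc27a2, Scp2, Acox3 and Pex16 were added after their values were seen. The enzymes and lists were chosen with earlier results of these data known.

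The fit was tested on simulated data of 18193 genes, 200 of them changed. It recovered 27.1% of changes of 0.5 on the log2 scale, 72.4% of changes of 1 and 94.4% of changes of 2, with 3.01% false calls. In the real data 24.0% of genes were called, a far larger share than was changed in the simulation. The adjusted p depends on that share, so these rates need not hold for the real data. Alternatives were a replicate block, a background filter, 3 scalings, 2 choices of probe set, 2 variance settings, a stricter threshold and leaving out each array; centring on hybridisation controls and the second brightest probe set were added after the data were seen. Nothing in the labels says whether the same replicate number pairs livers. The correlations of deviations within a number were 0.10, -0.018 and 0.11, and with so few arrays they cannot settle it. The labels call the samples biological replicates, and their number limits the precision.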

Additional observations from a re-analysis of the deposited data

How the results depend on the processing

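Pecr kept its direction under all 17 alternatives and its call under 16, the exception being its second brightest probe set (-0.42, adjusted p = 0.0528). Agps kept its call under 15; it was 0.094 with the mean of its probe sets and -0.29 with the second brightest. The count of changed enzymes was 2 as deposited, 4 with control centring (45 controls), 1 with the mean of probe sets, 0 with second brightest probe sets, where limma called 0 of the 3 replaced genes and 1 had an unadjusted p under 0.05, and 2 without any 1 array. Gnpat was -0.027 with quantile normalization and passed with control centring (0.55) and with hybridisation controls alone (0.45). Phyh was 0.38 and 0.29 on those 2 scales. Far1 was -0.081 with array weights. With 1 array left out the differences ran from 0.051 to 0.17 for Gnpat, from 0.79 to 0.89 for Agps, from -0.19 to 0.18 for Far1, from -0.12 to 0.0062 for Phyh, from -0.18 to 0.25 for Hacl1 and from -1.14 to -1.03 for Pecr; signs turned without WT replicate 3 (Far1 -0.193, Hacl1 -0.0035), KO replicate 2 (Phyh 0.0062), WT replicate 2 (Hacl1 -0.185) and KO replicate 1 (Hacl1 -0.162). Over all genes, 4363 changed as deposited, 11561 with control centring, 8191 with hybridisation controls alone, 2017 at an adjusted p under 0.01 and 2385 to 4103 with 1 array left out, the lowest counts being 2385 without KO replicate 2 and 2588 without KO replicate 1. The cause of these shifts was not tested. With the replicate number as a block, 4089 genes were called, and Agps (adjusted p = 0.00364) and Pecr (0.00118) kept their calls; 3 of 6 arrays correlated best with their own number. Signal close to background limits what can be said of Far1 and of the dimmer probe sets of Agps.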
